A study of Mus musculus with 2 samples.

Results

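The shared peaks at bidirectional promoters are the DNase I hypersensitive sites that lie where the starts of 2 protein-coding genes face away from each other. They were chosen by position and by peak calls. A member is a 150 bp peak of replicate 1, on chromosomes 1 to 19, that a peak of replicate 2 overlapped by at least 75 bp. Its midpoint also had to lie between, or within 200 bp outside, the transcription start sites (TSSs) of a minus-strand gene and a plus-strand gene, divergent and at most 1000 bp apart in the GENCODE M21 annotation of mouse genome build mm10. The rule gave 1229 members among 83993 shared peaks. Shared peaks made up 40.9% of all replicate 1 peaks on these chromosomes, so that a match in replicate 2 was itself a selection on measured signal.

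The data were 2 DNase-seq libraries of a single group, with no treatment and no control. The tissue was the embryonic facial prominence, the outgrowths that build the face. It came from B6NCrl mice at embryonic day 11.5, labelled healthy, and males and females were pooled. The libraries are labelled biological replicates 1 and 2 and come from separate biosamples under the same donor entry, and replicate 2 was sequenced on an additional instrument model. DNase-seq cuts nuclei with the nuclease DNase I and maps where chromatin is open enough to be cut. The tissue is a mixture of cell types, and a site open in fewer cells cannot be told apart from a site cut less often in every cell. The comparison made here is between peaks of different kinds within each library, and no condition was compared.

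Bidirectional promoters are a common arrangement in mammalian genomes, in which a single short stretch of open chromatin lies between divergent genes and can serve both. They are known for high CpG content, for a lack of TATA boxes, and for an excess of genes that most cells need, such as those for DNA repair, RNA processing and mitochondria. Many promoters of single genes are also transcribed divergently, into noncoding RNA, so that an annotated coding partner is a matter of degree and not a sharp division.

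Sequence shows what such an element looks like. The 3 sequences below belong to well-ranked members that lie wholly between both TSSs of a pair and overlap no annotated exon. They are the plus strand of GRCm38 (mm10), 5′ to 3′, from the RefSeq assembly, and each is the whole 150 bp peak. Capitals mark matches, on either strand, to CCAAT, the motif of the factor NF-Y, and to CCGGAAG, that of the ETS factors.
Rsrc2/Kntc1, chr5:123749516-123749665: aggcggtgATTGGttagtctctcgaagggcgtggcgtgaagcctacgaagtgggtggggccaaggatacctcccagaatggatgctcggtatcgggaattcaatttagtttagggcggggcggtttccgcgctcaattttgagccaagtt
Cep57/Fam76b, chr9:13827536-13827685: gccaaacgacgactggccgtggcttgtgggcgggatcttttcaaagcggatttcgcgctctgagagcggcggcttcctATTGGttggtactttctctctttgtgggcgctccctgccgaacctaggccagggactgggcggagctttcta
Tada2b/Ccdc96, chr5:36484376-36484525: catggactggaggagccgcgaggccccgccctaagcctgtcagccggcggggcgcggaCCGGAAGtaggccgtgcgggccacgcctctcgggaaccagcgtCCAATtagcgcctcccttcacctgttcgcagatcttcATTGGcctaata
The Rsrc2/Kntc1 peak held 1 CCAAT match and 11 CpG dinucleotides, and the Cep57/Fam76b peak held 1 CCAAT match and 12. The Tada2b/Ccdc96 peak held 1 ETS match, 2 CCAAT matches and 15 CpG dinucleotides. A match is a string of letters in the peak and not a measured binding site.

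The authors deposited a signal value with each peak, and it is called strength here. It was a whole number, at most 134 in replicate 1 and 149 in replicate 2 over 205599 and 213624 autosomal peaks, and none exceeded 150, the width of a peak. How it relates to read depth is not stated by the labels or the notes, and the depth of both libraries is unknown. The median over all peaks was 16 in replicate 1 and 42 in replicate 2, and levels were therefore never compared between libraries. Within each library, a peak's percentile is its rank among the 83993 shared peaks. With 2 libraries of 1 group, an exact sign-flip test cannot give a p below 0.5, and peaks are not replicates, so that differences are given per library with no p. Percent shares carry exact 95% binomial intervals, which cover counting error only and treat peaks or genes as independent. Markers set the tissue in context. A shared peak lay within 1000 bp of a TSS of 11 of 12 genes of facial mesenchyme, 3 of 6 of epithelium, 4 of 4 of neurons and 2 of 3 of muscle. The counts were 1 of 4 for endothelium, 0 of 3 for red cells, 0 of 4 for macrophages and 0 of 3 for liver. The libraries differed here, since replicate 1 had a peak at 1 of 4 endothelial, 1 of 3 red cell and 1 of 3 liver genes, and replicate 2 at 4, 2 and 0 of these. The part that any of these cell types has in the values below was not tested. The share over all genes within 1000 bp was not computed for comparison with the marker counts. Within 200 bp of a TSS it was 54.6% of the genes with no divergent partner, so that counts near such a share say little about a cell type. Gata1, listed for red cells, had no TSS on the chromosomes used and was not counted.

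Most divergent promoters of the annotation were open in both libraries. The 1229 members fell at 956 of 1051 divergent promoters, or 91.0% (89.1 to 92.6%). The background is the share of the other 18624 protein-coding genes with a shared peak within 200 bp of a TSS, which was 54.6%. The members' share is over promoters with wide windows, and it counts each pair once. Counted gene by gene in the same way as the background, 1846 of 2098 genes with a divergent partner had such a peak, or 88.0% (86.5 to 89.3%). The rule selected on the presence of a shared peak only after the promoters had been listed, so that the shares describe the annotation's divergent promoters in these 2 maps.

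Sequence composition moved with this difference. The CpG observed/expected ratio over 1000 bp around the gene start had a median of 0.764 in genes with a divergent partner and 0.513 in the other genes. At annotated gene starts alone, 77.0% of partnered genes (75.2 to 78.8%) and 47.4% of other genes (46.7 to 48.1%) had a shared peak within 200 bp. Within classes of the CpG ratio the shares lay closer together. From 0.6 to 0.8, they were 82.6% of partnered genes (79.9 to 85.0%) and 80.1% of other genes (78.95 to 81.3%). At 0.8 or more, they were 87.0% (84.5 to 89.2%) and 84.8% (83.6 to 85.9%), in the same order. From 0.4 to 0.6, they were 65% (58.3 to 71.3%) and 58.4% (56.5 to 60.3%). From 0.2 to 0.4, the partnered genes had the lower share, 14.8% (8.71 to 22.9%), against 17.3% (16.0 to 18.6%) of other genes. Only below 0.2, among 56 partnered genes, did the intervals not overlap, at 8.93% (2.96 to 19.6%) and 2.07% (1.68 to 2.53%).

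**Figure D1:**
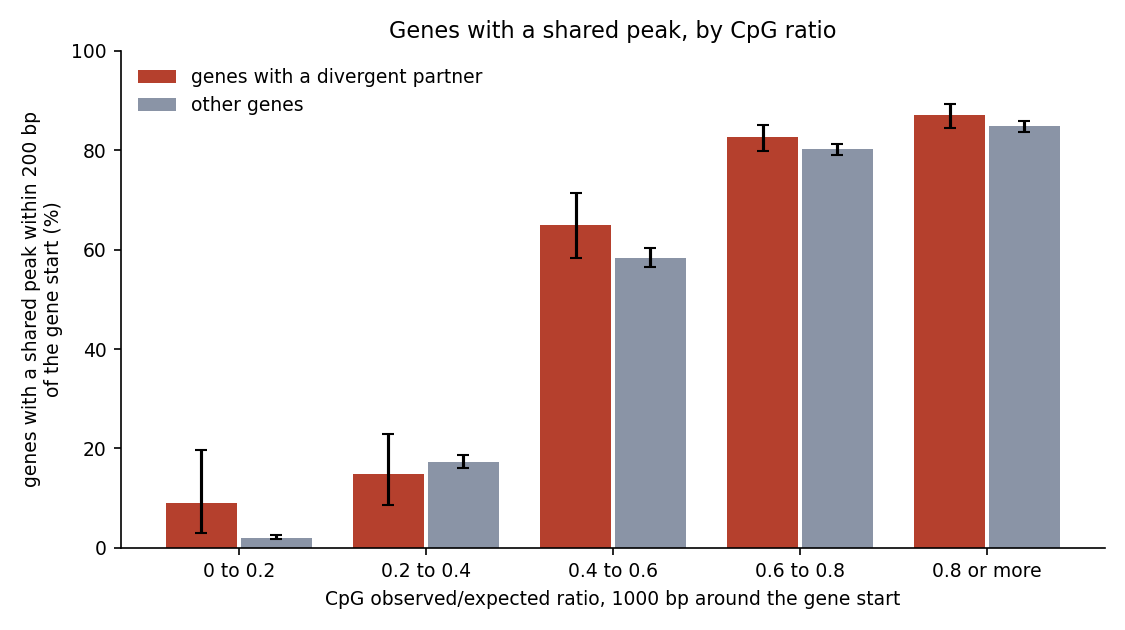
Share of genes with a shared peak within 200 bp of the annotated gene start (vertical axis, percent), by the CpG observed/expected ratio over 1000 bp around that start (horizontal axis), for 2098 genes with a divergent partner (red, left) and 18624 other genes (grey, right). Error bars are exact 95% intervals, and above a ratio of 0.6 the paired bars differ by less than 3 percentage points.

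The 95 divergent promoters without a member fell into distinct kinds. At 50 of them neither library had a peak in the window, and their median CpG ratio was 0.251, against 0.780 for the 956 promoters with a member. At 30 both libraries had a peak but none overlapped by 75 bp, and their median CpG ratio was 0.750. A further 13 had a peak in replicate 2 only and 2 in replicate 1 only. Several of the unmatched promoters were strongly open. At Gm10644/Asf1b, where Asf1b encodes a histone chaperone of DNA replication, the peak had a strength of 115 in replicate 1 and 145 in replicate 2, but their midpoints lay at 145 and 245 bp from the minus-strand TSS. At Phtf2/Tmem60, the strength was 111 in replicate 1 and 140 in replicate 2. Both promoters failed the overlap of 75 bp, with peaks present in each library.

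The members were among the strongest peaks of both maps. The rule used no strength value, though a match needs a peak call in each library. Their median strength was 93 in replicate 1 (quartiles 78 and 102, range 12 to 125), against 58 for the 21267 shared peaks within 1000 bp of a TSS of genes with no divergent coding partner (quartiles 35 and 88). In replicate 2 it was 129 (lower quartile 117, range 23 to 149), against 99 for the other promoter peaks (lower quartile 66). The 60630 distal shared peaks had medians of 28 and 63. As percentiles, the members' medians were 93.96 in replicate 1 and 93.85 in replicate 2, and those of the other promoter peaks were 78.4 and 78.5. The members stood 15.4 ± 0.156 percentile points higher (SD, n = 2 libraries). Both libraries rank the same matched peaks, so that this SD does not cover the choice of comparison set or of the matching rule. The top 10% of shared peaks held 70.9% of the members in replicate 1 (68.2 to 73.4%) and 31.0% of the other promoter peaks (30.4 to 31.6%). In replicate 2 it held 69.2% of the members (66.5 to 71.7%) and 30.6% of the other promoter peaks (29.9 to 31.2%). Members made up 1.46% of all shared peaks, 10.3% of the strongest 8399, 13.5% of the strongest 1000 and 4 of the strongest 10.

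**Figure D2:**
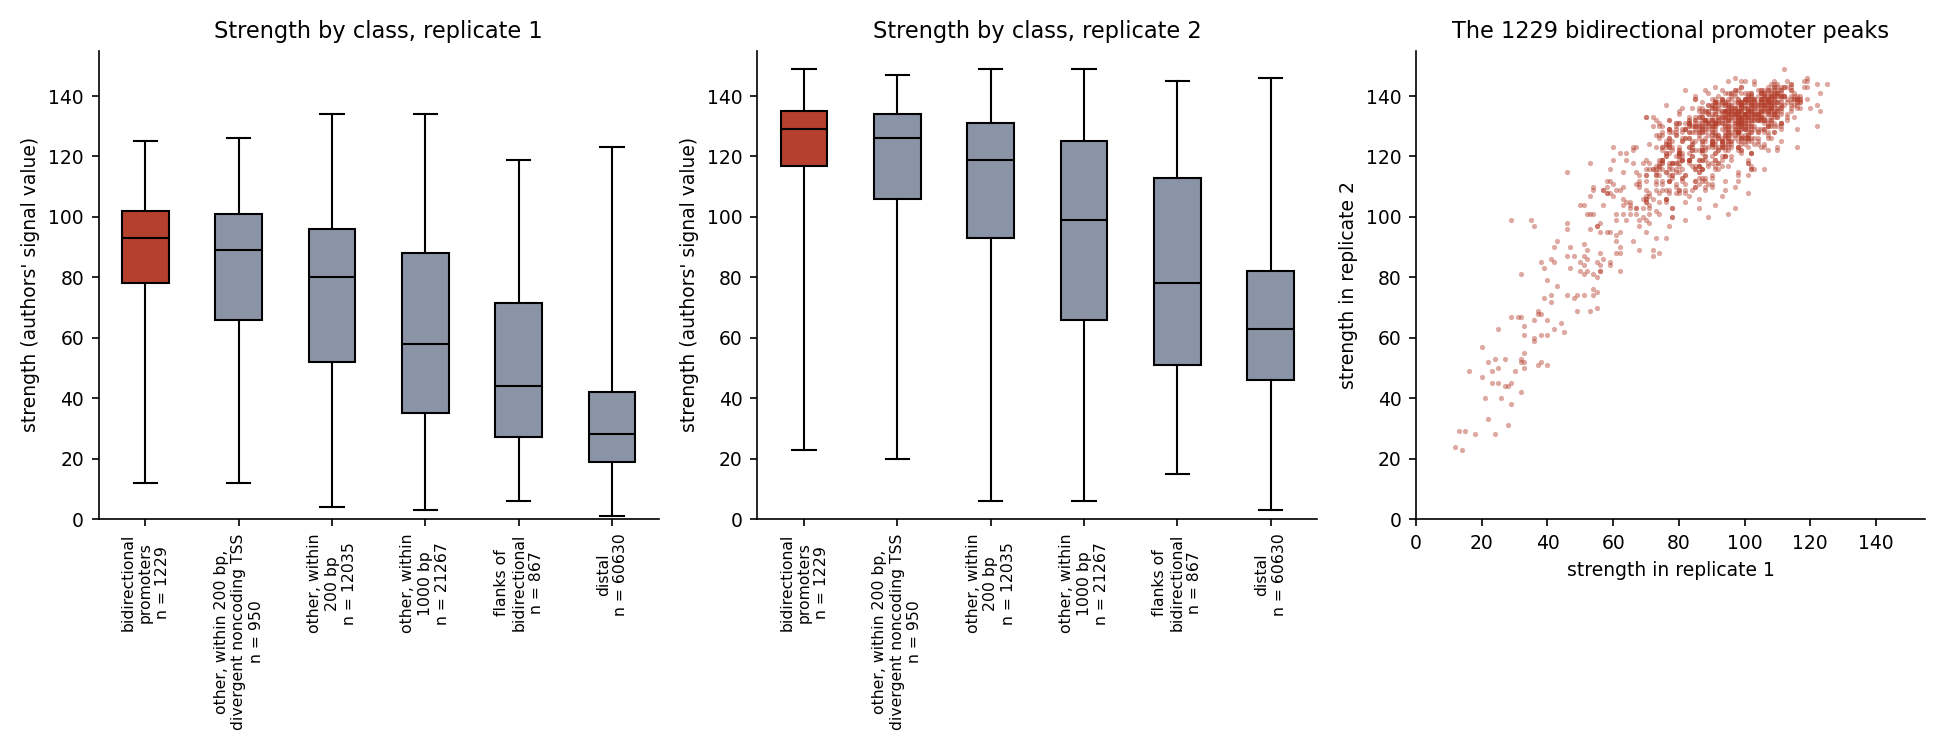
Strength, the authors' signal value (vertical axis), of shared peaks by class in replicate 1 (left) and replicate 2 (middle), with the members in red, and strength of the 1229 members in replicate 1 (horizontal axis) against replicate 2 (vertical axis) at right. Boxes are quartiles with the median as a line and whiskers reach the lowest and highest peak. The members' medians of 93 and 129 are the highest of the classes drawn, and those of other promoter peaks within 200 bp of a TSS with a divergent noncoding TSS are 89 and 126.

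The difference was smaller against promoter peaks as near to a TSS as the members were. The rule holds members near a TSS, with a median distance of 37 bp, against 129 bp for the other promoter peaks. Against the 12035 other promoter peaks within 200 bp of a TSS, whose median strength was 80 in replicate 1 and 119 in replicate 2, the members stood 4.63 percentile points higher in replicate 1 and 4.65 in replicate 2. Taking the strongest peak of each promoter gave 4.69 and 4.82 points. Of those 12035 peaks, 950 belonged to a TSS with a divergent noncoding TSS within 1000 bp, and their median strength was 89 in replicate 1 and 126 in replicate 2. Against these 950, the members stood 1.44 and 1.48 percentile points higher, or 4 and 3 units of strength. Against the 11085 with no such noncoding TSS, they stood 4.98 and 5.10 points higher. The 950 peaks had median percentiles of 92.5 and 92.4, near the top of a bounded scale, which leaves less room for a difference.

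The difference also shrank as CpG content rose. Peaks within 200 bp of a TSS were put in 4 classes by the CpG ratio over 1000 bp, each with an equal number of other promoter peaks. In the lowest class, up to 0.576, the 120 members had median strengths of 73 (replicate 1) and 112 (replicate 2), and the other promoter peaks had 47 and 92, a difference of 18.2 and 12.7 percentile points. In the next class it was 3.001 and 4.65 points, and in the one above it 2.15 and 2.47. In the highest class, above 0.837, the 407 members had median strengths of 98 and 131, against 93 and 127 for the others, a difference of 1.78 and 2.06 points. By distance from the TSS, the difference was 3.95 and 3.21 points at 0 to 20 bp, and 9.10 and 11.2 points at 101 to 200 bp. In both libraries it was above 0 in each of these classes of distance and CpG ratio. Percentiles are bounded. The other promoter peaks had median percentiles of 68.5 and 73.2 in the lowest CpG class and 93.96 and 92.84 in the highest, which leaves less room for a difference there.

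**Figure D3:**
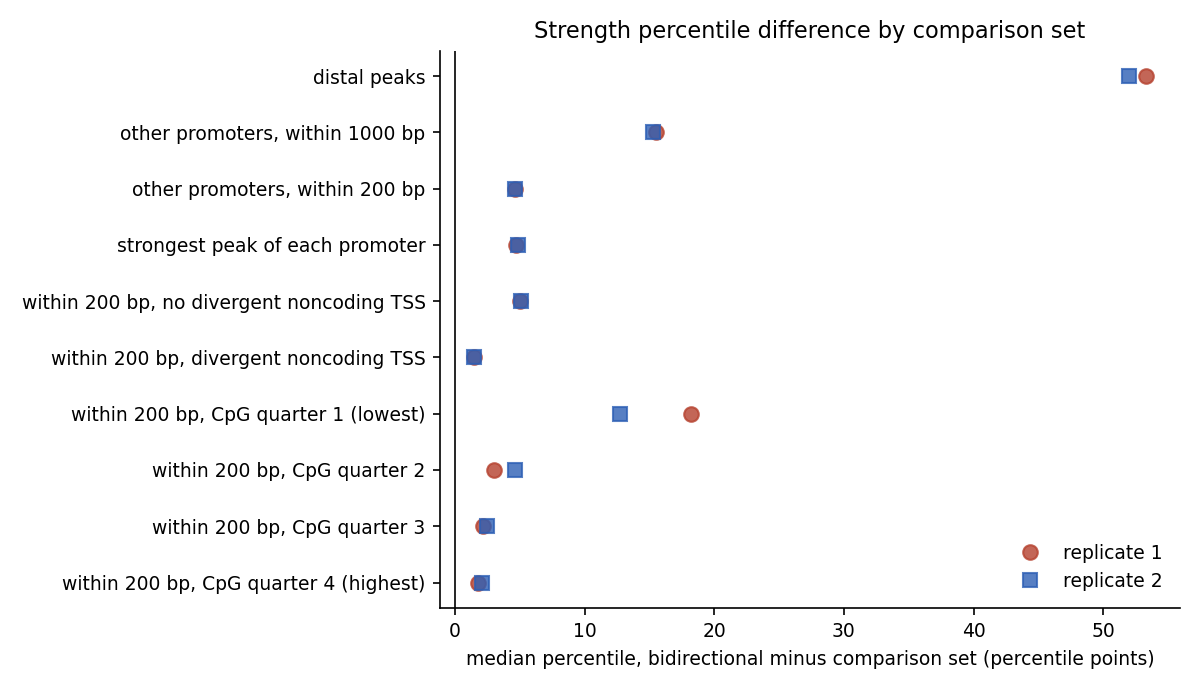
Difference of median strength percentile, bidirectional promoter peaks minus each comparison set (horizontal axis, percentile points), for replicate 1 (circles) and replicate 2 (squares), with the comparison sets down the page. The difference is 15.5 and 15.3 points against all other promoter peaks and 1.44 and 1.48 points against those within 200 bp of a TSS with a divergent noncoding TSS.

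The hotspots, the wider enriched regions that the authors called on each library, were compared in the same way. A member's midpoint lay in a hotspot with the highest deposited −log10 q, a ceiling of 100, for 96.2% of members in replicate 1 and 98.7% in replicate 2. For the other promoter peaks the shares were 72.9% and 88.8%, and for those within 200 bp of a TSS 83.3% and 95.3%. The hotspots that held members had median lengths of 1308 bp in replicate 1 and 1407 bp in replicate 2, against 1042 and 1197 bp for other promoter peaks within 200 bp of a TSS. With a divergent noncoding TSS the lengths were 1298 and 1453 bp, so that in replicate 2 the members' hotspots were the shorter.

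The libraries were then compared for the members' ranks. Over the 1229 members, strength in replicate 1 and in replicate 2 were correlated across peaks with a Pearson r of 0.882 and a Spearman rho of 0.780. Over the other promoter peaks they were 0.933 and 0.945, over a wider range of strength. A member's percentile differed between the libraries by a median of 2.40 points, against 4.55 for the other promoter peaks. It was 3.33 for those within 200 bp of a TSS and 2.73 for those within 200 bp with a divergent noncoding TSS. Percentiles are bounded and the members lay near the top, which leaves less room to differ. These values therefore do not rank the classes by reproducibility. The matched peaks started within 20 bp of each other for 79.7% of members (77.3 to 81.9%), against 69.8% of other promoter peaks (69.2 to 70.5%) and 76.5% of those within 200 bp of a TSS (75.8 to 77.3%). Peak starts lie on a grid of 20 bp in both files, so that finer shifts cannot be seen.

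The number of members at a promoter varied with the distance between the TSSs. The gap between the TSSs, taken as the shortest at each promoter, had a median of 119 bp (quartiles 66 and 243, range 1 to 987). A single member lay at 710 promoters, 2 at 220, 3 at 25 and 4 at 1, the promoter of Prr3/Gnl1, named here because it is the only one. With a gap of 1 to 50 bp, 14.97% of open promoters held 2 or more members. With 401 to 1000 bp, 53.2% did, and with 51 to 100, 101 to 200 and 201 to 400 bp the shares were 24.6, 18.4 and 30.6%. The window widens with the gap, so that longer gaps leave more room for peaks. The strongest member barely varied with the gap, with medians of 93, 97, 98, 95 and 92 in replicate 1 and 128, 130, 134, 133 and 132 in replicate 2 from the shortest gap class to the longest. The share of promoters with a member was 83.5% (76.0 to 89.3%) at 401 to 1000 bp and 90.7 to 93.4% in the other classes.

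Of all members, 48.6% had a midpoint within 50 bp of the centre between the TSSs. The window is symmetric about that centre. Where the windows of several TSS pairs held a midpoint, the pair with the shortest gap set the centre. Members of the same promoter could therefore have different centres, and the positions given here depend on this choice. Midpoints lay at a median of 1.5 bp from the centre, in the direction of the plus strand (quartiles -50 and 57.5). The nearer TSS was that of the minus-strand gene for 602 members and of the plus-strand gene for 623. A midpoint between the TSSs was found for 67.1% (64.4 to 69.8%) of members. At other promoters, 70.2% (69.4 to 71.0%) of peaks within 200 bp lay upstream of the TSS, with a median of 28 bp upstream. By the gap of each member's own pair, the median distance to the centre was 34.5 bp at gaps of 101 to 200 bp. It was 290 bp at gaps of 401 to 1000 bp, where most members lay to either side of the centre. That last class holds 265 members by their own gap, and 175 by the shortest gap of the promoter.

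**Figure D4:**
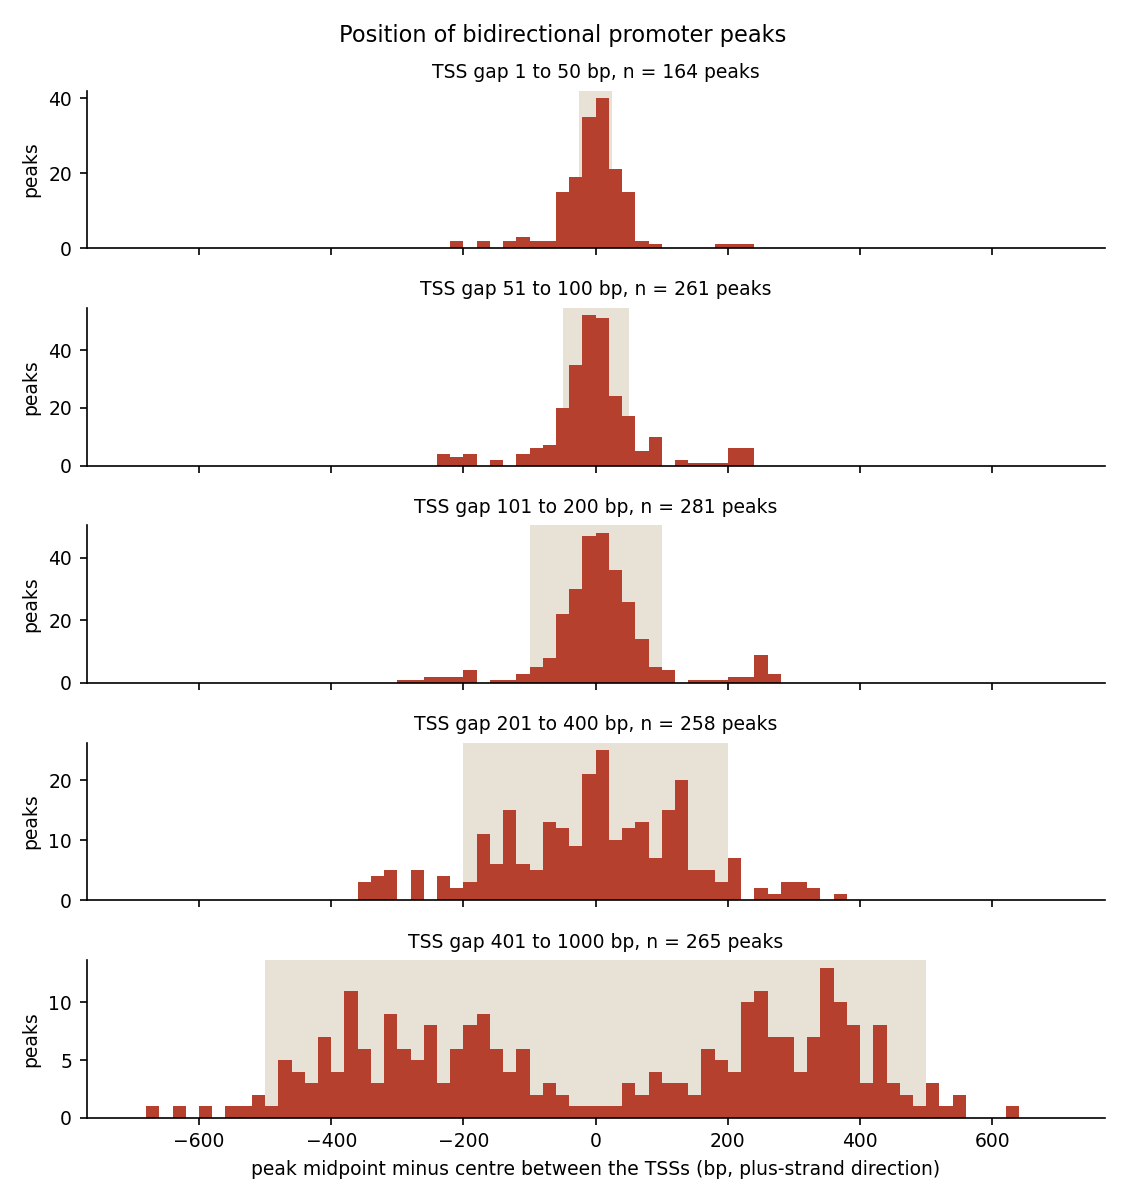
Number of members (vertical axis, 20 bp bins) by the distance of the peak midpoint from the centre between the TSSs (horizontal axis, bp, plus-strand direction). Classes of TSS gap, by the gap of each member's own pair, run down the page. Shading spans the longest gap of each class, and the median distance to the centre is 23.2, 26.5, 34.5, 101.8 and 290 bp from the top panel to the bottom.

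At the 220 promoters with 2 members, the peaks started a median of 420 bp apart. The stronger peak had a median strength of 98 in replicate 1 and 132 in replicate 2, and the weaker 77 and 111. The same peak was the stronger in both libraries at 177 of 220 (80.5%, 74.6 to 85.5%). Of both peaks, the stronger was the one with the higher coordinate at 115 promoters in replicate 1 and at 108 in replicate 2. A peak within 75 bp of each TSS was not the usual layout. The first peak lay that near the minus-strand TSS and the second that near the plus-strand TSS at 31 of 220 (14.1%, 9.78 to 19.4%). Mcm4/Prkdc joins a subunit of the replicative DNA helicase with the catalytic subunit of the DNA-dependent protein kinase of double-strand break repair, across a gap of 489 bp. The peak nearer the Mcm4 TSS, 90 bp from it in replicate 1, had strengths of 108 in replicate 1 and 140 in replicate 2. That nearer the Prkdc TSS had 89 and 117. The longest gap, 987 bp, belonged to Btf3l4/Txndc12, with strengths of 107 and 139 at the Btf3l4 side and 84 and 130 at a second peak in the gap. Near the Txndc12 TSS, peaks of 70 in replicate 1 and 108 in replicate 2 did not overlap by 75 bp. The shortest gap, 1 bp, belonged to Arfrp1/Zgpat, where Arfrp1 encodes a small GTPase of the Golgi. Its single peak had strengths of 90 in replicate 1 and 128 in replicate 2.

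The strongest members are described by pair. The 15 promoters with the best mean percentile over both libraries, a choice made on strength itself, had strengths of 112 to 125 in replicate 1 and 141 to 149 in replicate 2. Rbbp4/Zbtb8os, on chromosome 4, had strengths of 119 in replicate 1 and 146 in replicate 2. Rbbp4 encodes a histone-binding protein shared by several chromatin complexes, and Zbtb8os encodes archease, a cofactor of tRNA ligation. Dtl/Ints7, on chromosome 1, had 125 and 144, where Dtl encodes the adaptor of the ubiquitin ligase that removes a replication licensing factor and Ints7 a subunit of the Integrator complex. Hspd1/Hspe1, on chromosome 1, had 122 and 144 across a gap of 108 bp, and its genes encode the mitochondrial chaperonin and its co-chaperonin. Setd3/Ccnk had 119 and 145, where Setd3 encodes the actin histidine methyltransferase and Ccnk encodes cyclin K, a partner of kinases that act on RNA polymerase II. Senp8/Myo9a had 118 and 145, where Senp8 encodes a protease for the ubiquitin-like protein NEDD8 and Myo9a an unconventional myosin.

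Rsrc2/Kntc1, the first sequence above, had 119 in replicate 1 and 143 in replicate 2, and Kntc1 encodes a kinetochore protein of the spindle checkpoint. Its second member, on the Rsrc2 side, had 70 and 105. Cep57/Fam76b, also shown above, had 112 and 149, where Cep57 encodes a centrosome protein. Alyref/Anapc11 had 114 and 142, with an mRNA export factor and a catalytic subunit of the anaphase-promoting complex. Mrpl18/Tcp1, with a mitochondrial ribosomal protein and a subunit of the cytosolic chaperonin, and Bbip1/Shoc2, with a subunit of the ciliary BBSome and a scaffold of RAS signalling, both had 114 and 144. Litaf/Snn had 118 and 143, Fbxo24/Lrch4 113 and 145, and Casc1/Etfrf1 113 and 143.

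Foxa3/Sympk, also among the 15, had its signal at the TSS of one gene. Its peak had strengths of 123 in replicate 1 and 141 in replicate 2, and lay 47 bp from the TSS of Sympk, which encodes a scaffold of mRNA cleavage and polyadenylation. The TSS of Foxa3, a transcription factor gene known from endoderm, lay 839 bp away from that TSS. Replicate 1 had no peak on the Foxa3 side, and replicate 2 had a peak with a strength of 37 there, 132 bp from the Foxa3 TSS. The data hold no RNA, and which of these genes is transcribed was not measured.

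Of the 5 members with the lowest mean percentile, 4 lay at promoters with a stronger member. Tmtc3/Cep290, where Cep290 encodes a protein of the ciliary transition zone, had a member with strengths of 12 in replicate 1 and 24 in replicate 2, and another with 95 and 137. Zswim9/Lig1, where Lig1 encodes the DNA ligase that joins Okazaki fragments, had a member with 14 and 23, and another with 100 and 130. At Nipal3/Stpg1, overlapping members had 13 and 29 and, for the other, 15 and 29. One more member there had 41 and 86. Ifit1bl2/Ifit1 had no other member. Its single member had strengths of 18 in replicate 1 and 28 in replicate 2, at the promoter of interferon-induced genes.

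The members whose rank differed most between the libraries were below the members' median in both. S100a1/S100a13 had a strength of 28 in replicate 1 and 31 in replicate 2, percentiles of 40.6 and 6.14. Acad10/Brap had 29 and 38, or percentiles of 42.6 and 12.5, at a second peak of a promoter whose first peak had 94 and 124. In the other direction, Cenpj/Parp4, where Cenpj encodes a centriole protein, had 29 and 99, or percentiles of 42.6 and 78.5. Lrrc34/Lrriq4 had 46 and 115, or percentiles of 67.4 and 87.3. With 2 libraries, such gaps have no error of their own.

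Genes of DNA repair, RNA processing and mitochondria often had a divergent partner, a fact of the annotation. Of 110 genes listed for DNA replication and repair, 41 had one (37.3%), as did 36 of 94 for RNA processing (38.3%), 65 of 187 for mitochondrial proteins (34.8%), 18 of 71 for cilium and centrosome (25.4%), 27 of 66 core histone genes (40.9%) and 4 of 87 genes of facial development (4.598%). Over all protein-coding genes it was 10.1%. A member lay at the promoter of 40 of the 41 partnered genes of DNA replication and repair, 36 of 36 of RNA processing, 64 of 65 of mitochondrial proteins, 16 of 18 of cilium and centrosome and 19 of 27 core histone genes. Over all genes with a partner it was 91.6%, and no list's share was tested against it. The strongest member of each promoter had median strengths, in replicates 1 and 2, of 99.5 and 138 for RNA processing, 98 and 130 for mitochondrial proteins and 95.5 and 133.5 for cilium and centrosome, against 96 and 131 over all 956 promoters. For DNA replication and repair the median was 98 in replicate 1, with a range of 84 to 146 in replicate 2.

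Pairs with both genes in the same list were few outside the histones. Among mitochondrial proteins, Mrpl46/Mrps11, which join proteins of the large and small mitochondrial ribosome subunits across 30 bp, had strengths of 100 in replicate 1 and 126 in replicate 2. Sdhd/Timm8b, with a membrane anchor of succinate dehydrogenase and a chaperone of protein import, had 87 and 131 across 98 bp. Mrpl43/Twnk, where Twnk encodes the helicase of mitochondrial DNA, had 88 and 120, and Ndufs6/Mrpl36, where Ndufs6 encodes a subunit of respiratory complex I, had 76 and 125. In RNA processing, Hnrnpa2b1/Cbx3 had a member with 106 and 142 and a somewhat weaker one. Hnrnpa2b1 encodes an RNA-binding protein, and Cbx3, though in that list, is best known as a heterochromatin protein.

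Among the lists, the share of partnered genes with a member was smallest for the core histones, at 70.4%. The 10 open promoters had median strengths of 75.5 in replicate 1 and 121 in replicate 2, below the 96 and 131 over all 956 promoters. The 9 open pairs named next join an H2A with an H2B gene across 176 to 302 bp. Hist1h2bf/Hist1h2ad had 95 in replicate 1 and 132 in replicate 2, the highest strength in replicate 1 among the open pairs named. Hist1h2ah/Hist1h2bk had 92 and 126, Hist1h2an/Hist1h2bp 86 and 128, and Hist1h2ag/Hist1h2bj 85 and 133. Hist2h2ac/Hist2h2be had 77 and 124, Hist1h2ac/Hist1h2bc 74 and 118, Hist1h2bl/Hist1h2ai 73 and 117, and Hist1h2ae/Hist1h2bg 67 and 115. At Hist1h2ak/Hist1h2bn the member, with 50 and 85, lay outside the pair, beyond the Hist1h2ak TSS. Between its TSSs, peaks of 74 in replicate 1 and 115 in replicate 2 did not overlap by 75 bp. Neither library had a peak at Hist1h2bq/Hist1h2ao, Hist1h2ap/Hist1h2br or Hist1h2ba/Hist1h2aa, and at Hist1h2bh/Hist1h3f the peaks of the libraries did not overlap by 75 bp. Histone genes are near-identical copies, and neither labels nor notes state how reads that map to several places were treated, so that strength and absence at these promoters are uncertain.

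Genes listed for facial development rarely shared a promoter. The 4 with a divergent partner encode parts of machinery that every cell uses, and in human they are known from craniofacial syndromes. Polr1c/Yipf3 had strengths of 95 in replicate 1 and 133 in replicate 2 across 26 bp, where Polr1c encodes a subunit of RNA polymerases I and III. Lnx2/Polr1d had members with 109 and 137 at the Lnx2 side and 101 and 119 beyond the Polr1d TSS. Ptcd3/Polr1a, where Polr1a encodes the largest subunit of RNA polymerase I, had a member with 80 and 118 nearer the Ptcd3 TSS and one with 95 and 101 nearer the Polr1a TSS, so that the stronger peak differed between the libraries. Eftud2/Ccdc103, where Eftud2 encodes a GTPase of the spliceosome, had 102 and 116. None of the transcription factor genes listed for the face had a divergent coding partner within 1000 bp. Genes outside that list were not covered.

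The sequence under the members had a higher CpG ratio than that under all other promoter peaks, at the same GC content, and about that of promoter peaks with a divergent noncoding TSS. The median CpG observed/expected ratio over the 150 bp was 0.899 under members, against 0.765 under other promoter peaks, 0.837 under those within 200 bp of a TSS and 0.905 under those within 200 bp with a divergent noncoding TSS. The median GC content was 64.7% under members, 64.7% under other promoter peaks and 67.3% under those within 200 bp.

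Among 10 motifs, the ETS motif had the widest difference in share between members and all other promoter peaks within 200 bp of a TSS. The strings searched, on both strands, were CCGGAAG for ETS factors such as GABPA, CCAAT for NF-Y, GGGCGG for SP and KLF factors, GCATGCGC for NRF1, TGACGTCA for CREB and ATF, AAGATGGCG for YY1, TTTNGCGC for E2F, ACTACAA for ZFP143, CACGTG for MYC and USF, and TATAAA for the TATA-binding protein. The ETS string ends with the letters AAG with which the YY1 string begins, and the NRF1 and E2F strings end alike, so that those can overlap. The ETS string lay in 20.6% of members (18.4 to 23.0%), against 11.8% of other promoter peaks within 200 bp (11.3 to 12.4%) and 15.5% of those with a divergent noncoding TSS (13.2 to 17.9%). In each of the 4 CpG classes the members' share was above that of other promoter peaks with intervals apart, at 14.2, 22.9, 20 and 22.4% of members and 5.48, 14.6, 13.2 and 14.1% of other peaks from the lowest class to the highest. The ZFP143 string lay in 4.56% of members (3.46 to 5.88%), against 1.89% (1.66 to 2.15%) and 1.26% (0.654 to 2.20%). CCAAT lay in 31.2% of members (28.7 to 33.9%), against 25.8% (25.01 to 26.6%) and 29.1% (26.2 to 32.1%).

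For the other motifs the difference from all other promoter peaks within 200 bp was smaller. The SP string was the most frequent, in 57.4% of members (54.5 to 60.1%), 57.9% of other promoter peaks within 200 bp (57.03 to 58.8%) and 63.3% of those with a divergent noncoding TSS (60.1 to 66.3%). NRF1 lay in 4.88% of members and 3.86% of other promoter peaks within 200 bp, CREB in 3.25 and 3.10%, YY1 in 2.69 and 1.74%, E2F in 2.03 and 1.25%, and the MYC and USF string in 7.89 and 6.52%. TATAAA lay in 1.71% of members (1.06 to 2.60%) and 2.15% of the others (1.90 to 2.43%). Members with CCAAT had median strengths of 96 (replicate 1) and 134 (replicate 2), and members without it had 90 and 126. Members with the ETS string had 92 and 129, against 93 and 129 without it. With the SP string they had 96 and 131, against 87 and 125 without it. The 40 members with the CREB string had 101 and 132, against 92 and 129. The 25 with the E2F string had 104 and 134, against 92.5 and 129. Members with TATAAA, or with the MYC and USF string, had lower medians than those without it in both libraries. For NRF1, YY1 and ZFP143 the libraries did not give the same order.

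**Figure D5:**
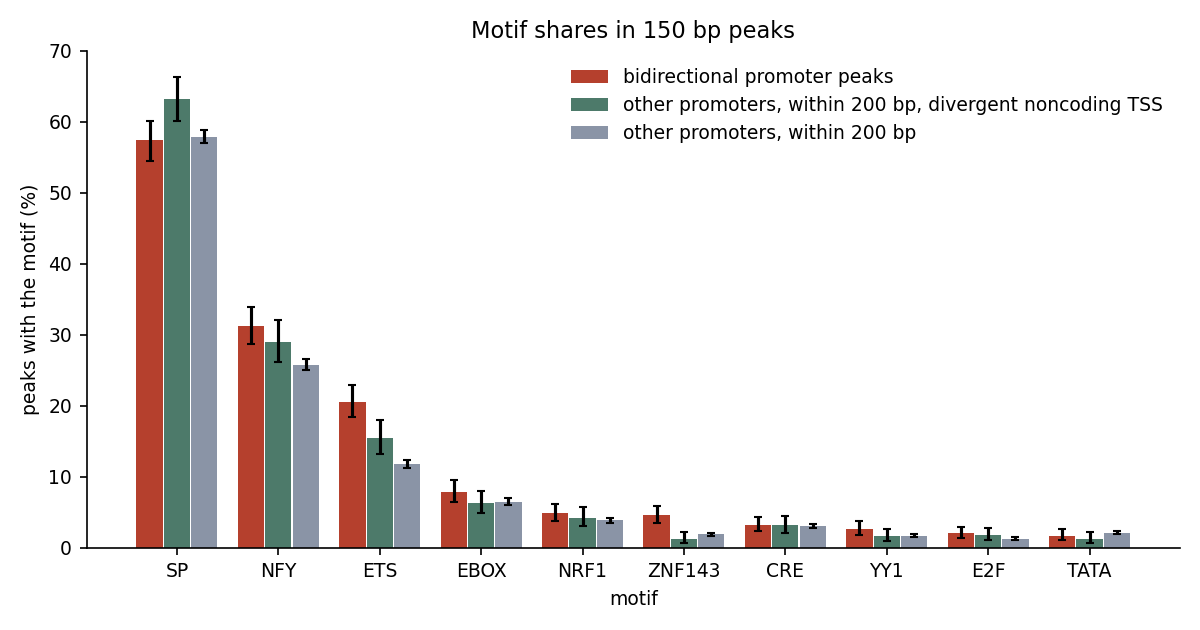
Share of peaks that hold each of 10 motif strings on either strand (vertical axis, percent), for members (red, left), other promoter peaks within 200 bp of a TSS with a divergent noncoding TSS (green, middle) and all other promoter peaks within 200 bp of a TSS (grey, right), with exact 95% intervals as error bars. The ETS string lies in 20.6, 15.5 and 11.8% of the peaks, from left to right.

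The share of members with a motif varied with the gap. The ETS string lay in 30.8% of members at promoters with a gap of 1 to 50 bp (24.4 to 37.8%), 28.9% at 51 to 100 bp, 16.9% at 101 to 200 bp, 15.2% at 201 to 400 bp and 8.57% at 401 to 1000 bp (4.88 to 13.7%). CCAAT was less frequent at short gaps, in 17.9% of members at 1 to 50 bp (12.8 to 24.1%), 22.1, 39.7 and 40.6% in the next 3 classes and 34.3% at 401 to 1000 bp (27.3 to 41.8%). The SP string lay in 50.8 to 61.9% of members in all 5 classes, with no order by gap.

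Peaks just inside and just outside each threshold of the rule were compared as a description. Members with an overlap of 90 bp, just inside, had median strengths of 86.5 in replicate 1 and 125.5 in replicate 2 (62 peaks), and peaks with an overlap of 50 to 70 bp, just outside, had 72.5 and 113.5 (54 peaks). Members 101 to 200 bp outside the TSSs had 66 and 105 (65 peaks), and shared peaks 201 to 300 bp outside had 59 and 96 (91 peaks). Members with gaps of 801 to 1000 bp had 82 and 125 (43 peaks), and shared peaks at gaps of 1001 to 1200 bp, just outside, had 87 and 118.5 (36 peaks).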

How the data were processed

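DNase-seq peaks and hotspots of 2 libraries of embryonic facial prominence, labelled biological replicates 1 and 2, were used as deposited. Both were called by the authors on each library alone, on mm10, per the notes deposited with the files. Neither the aligner nor the peak caller is named there (not given in the sources used here). The deposited signal value of each 150 bp peak is a whole number of unknown relation to depth, and the deposited −log10 q of each hotspot has a ceiling of 100. Depth is unknown, since no totals of reads came with these peaks, and intervals cover counting error only.

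TSSs of all protein-coding transcripts of protein-coding genes (GENCODE M21, 52092 positions, 20722 genes) were paired as divergent at 1 to 1000 bp, and windows that overlapped were merged into 1051 promoters. A member belongs to a pair when its midpoint lies from 200 bp before the minus-strand TSS to 200 bp after the plus-strand TSS. Other promoter peaks lie within 1000 bp of a TSS of genes with no divergent coding partner, and shared peaks near partnered genes but outside the windows (867) were in neither set. Percentiles are mid-ranks among shared peaks of that library. Differences are differences of medians, with no test and no p. Sequence came from GRCm38.p6. The largest coordinates of all files lay within its chromosome lengths. Motif and gene lists, the members and the named pairs were chosen with earlier results of these data known. The pairs named are the 15 best by mean percentile, the 5 lowest members, pairs from the 5 members that differ most between libraries in each direction, the shortest and longest gap, pairs with both genes in a list, face genes, promoters without a member of high CpG ratio, and the 3 members whose sequence is printed. One of the pairs that these rules name is not reported here. Functions were tested on simulated peaks. Python 3.11.15, NumPy 2.4.6, pandas 2.3.3 and SciPy 1.17.1 were used.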

Additional observations from a re-analysis of the deposited data

How the results depend on the processing

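Of 64 alternatives, 2 reversed a difference, both against the promoter peaks within 200 bp of a TSS with a divergent noncoding TSS. There the CpG ratio of members was lower, with a difference of -0.00551, and the mean difference in hotspot length was -18 bp (10 bp in replicate 1 and -46 bp in replicate 2). The number of members was 416 with identical positions required (the strictest overlap tried, on the 20 bp grid), and 740 with 1 TSS per gene. It ranged from 858 to 1305 over other overlaps, gaps, margins, transcript sets, the 50000 strongest peaks of each library and counting replicate 2 peaks, and it was 1382 and 1465 without a match to the other library. The share of divergent promoters with a peak was 93.3% at 1 bp of overlap, 36.9% at identical positions, 77.0% counted by gene at its start, and 94.01 to 94.8% with either library alone. The percentile difference, 15.4 points, was 18.6 at 1 bp, 10.2 at identical positions, 15.6 with gaps to 300 bp, 15.8 with no margin, 14.4 with transcripts tagged basic, 12.2 with 1 TSS per gene, 14.8 with the 50000 strongest peaks and 15.7 without divergent noncoding TSSs. Either library alone gave 15.1 to 19.3. Against the other promoter peaks within 200 bp it was 4.64, against the strongest peak of each promoter 4.76, in the highest of 4 CpG classes 5.59, or 1.92 within 200 bp, and with a divergent noncoding TSS within 200 bp 1.46. The strength difference, 32.5, was 39.5, 20.5, 28, 16.5, 11.5, 11.5, 13.5, 4.5 and 3.5 at 1 bp, at identical positions, with 1 TSS per gene, with the 50000 strongest, within 200 bp, for the strongest peak of each promoter, in the highest CpG class, there within 200 bp, and with a divergent noncoding TSS. Either library alone gave 51 to 56. Hotspot length differed by a mean of 233.5 bp, or 238 bp within 200 bp of a TSS. The difference in the share of hotspots at the ceiling, 16.6 percentage points, was 2.65 with a divergent noncoding TSS. The CpG ratio difference, 0.134, was 0.0931 over 1000 bp and 0.0624 within 200 bp. The difference in ETS share, 12.5 percentage points against all other promoter peaks, was 8.75 within 200 bp, 5.11 there with a divergent noncoding TSS and 8.27 in the highest CpG class. Comparisons within 200 bp with noncoding TSSs or a CpG class, those of hotspots, CpG ratio and motifs within 200 bp, and the share by gene start were added after seeing the data. The cause of these shifts was not tested. No paired analysis was possible because both libraries belong to 1 group.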

Other observations

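Divergent promoters with no peak in either library included pairs of genes known from other tissues, chosen here after their values were seen. Abcg5/Abcg8, which encode sterol transporters of liver and gut, lay 110 bp apart with a CpG ratio over 1000 bp of 0.243. Plcz1/Capza3, known from sperm, lay 100 bp apart with a ratio of 0.278, and Hspb2/Cryab, small heat shock proteins of muscle and lens, lay 553 bp apart with a ratio of 0.230. Pecam1/Milr1, with an endothelial adhesion gene and a mast cell receptor gene, lay 598 bp apart with a ratio of 0.329. All 4 ratios are below 0.780, the median of promoters with a member. These pairs do not stand for the whole set, and pairs of this kind were not counted. The same set held Rnf151/Rps2, with a ratio of 0.161, Mdh1/Wdpcp, with 0.705, and Pex3/Adat2, with 0.720. It also held other starts of pairs that had a member elsewhere, such as Wars/Wdr25.

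Divergent promoters were spread over all 19 autosomes, with 30.8 per 1000 protein-coding genes on chromosome 6 and 67.0 on chromosome 12. The median percentile of members by chromosome lay between 91.4 and 95.04 in replicate 1 and between 90.5 and 95.4 in replicate 2.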
